A study of Mus musculus with 23 samples.

Results

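The miR-193 family has 2 members in the mouse, miR-193a and miR-193b. Both were present among the 903 mature miRNA rows of the deposited count matrix, and they are the 2 rows described here. They were chosen because they differed from wild-type (WT) retina in opposite directions, mir-193b higher and mir-193a lower in retinas of rhodopsin mutant mice. Those differences are therefore given below as a description, without a test. The 2 rows were tested among the mutant groups and between the eyes. These contrasts did not enter the choice, although the levels of the mutant mice did.

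Small RNA of 23 retinas, 1 library each, was sequenced at postnatal day 90. WT retinas came from C57B mice (2 libraries). All the other retinas came from P23H+/- KI mice, which carry a knock-in of the P23H mutation on one allele of the rhodopsin gene, a model of retinitis pigmentosa in which the misfolding pigment leads to the loss of rods. These mice were uninjected (5 libraries), given saline (2 libraries), or treated with DNA nanoparticles that carry the genomic form of human rhodopsin (human gRHO, 3 libraries) or of mouse rhodopsin (mouse gRho, 11 libraries). The sample titles were read as animal and eye, which is an inference. The libraries of both eyes of an animal were summed. This gave 15 mice, with 2 in the WT group, 3 uninjected, 1 with saline, 2 with human gRHO and 7 with mouse gRho. The WT titles name 1 right and 1 left retina and do not say whether these came from 1 mouse; they were counted as 2. The titles of the 3 uninjected mice begin with the same number, those of both human gRHO mice with another, and none of these numbers recurs in another group, so treatment cannot be told apart from whatever that number marks.

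A miRNA gene is transcribed as a long precursor, from which a hairpin is cut and then a short duplex. One strand of the duplex, from the 5p or the 3p arm, is loaded into an Argonaute protein. It pairs with messenger RNAs mainly through its seed, bases 2 to 8, and lowers their translation and stability. The miR-193 family is best known outside the eye. miR-193b is transcribed with miR-365 and is abundant in brown fat, and both members are known as repressors of growth and survival genes such as Mcl1, Kit and Ccnd1 in tumour cells.

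The mature sequences show what the paralogs share and how reads of one can be told from the other. They are from RefSeq (GRCm38.p6), written 5′ to 3′, with the seed in capitals.

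mmu-miR-193a-3p: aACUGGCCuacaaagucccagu
mmu-miR-193b-3p: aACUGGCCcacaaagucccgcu
mmu-miR-193a-5p: uGGGUCUUugcgggcaagauga
mmu-miR-193b-5p: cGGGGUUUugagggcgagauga
mmu-miR-365-3p: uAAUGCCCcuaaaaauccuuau

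The 3p arms carry the same seed, ACUGGCC, which only these 2 of the mature miRNAs in the RefSeq table hold. Over their 22 bases they differ at 3 positions, counted from the 5′ end with the miR-193a base first: U9C, A20G and G21C. The 5p arms differ at 5 of 22 positions (U1C, U5G, C6U, C11A and A16G), and with U5G and C6U inside the seed their seeds differ as well. A deposited row gives the locus without the arm, so it is not known which of these sequences a row counted.

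The hairpins show the arms in place, with the mature 5p and 3p sequences in capitals.

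Mir193a: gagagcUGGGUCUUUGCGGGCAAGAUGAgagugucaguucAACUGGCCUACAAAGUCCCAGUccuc
Mir193b: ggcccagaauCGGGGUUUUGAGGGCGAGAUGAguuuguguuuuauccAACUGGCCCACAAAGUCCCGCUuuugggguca

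Each paralog has a copy of miR-365 downstream on the same strand. In RefSeq GRCm38.p6, the Mir193a hairpin lies on the plus strand at chr11:79711969-79712034, and Mir365-2 begins after a gap of 14365 bases. The Mir193b hairpin lies on the plus strand at chr16:13449523-13449601, and Mir365-1 begins after a gap of 4238 bases. GENCODE M21, of the same assembly, places Mir193a in no other gene. It places Mir193b and Mir365-1 inside the antisense gene Gm15738, on the opposite strand and outside its exons. These positions belong to the reference tables, since the sources used here do not give the build behind the deposited counts.

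Mature miRNA reads per library ran from 5968388 to 16048954. Levels are given as CPM, the counts of a row per 1000000 mature miRNA reads of the library or mouse. The 903 mature rows added up to between 10.4% and 19.5% of them, so CPM of a row is a share of all mature reads and not of the matrix. Rows that jumped between separate levels across libraries were set aside (65 of the 337 with 30 or more reads in some library). Neither miR-193 row was among them. This filter used log2(CPM + 0.5), and the 0.5 shrinks gaps between low levels. The largest gap was 1.72 in mir-193b, with 1 library below it, and 1.34 in mir-193a, with 1 library above it. The cut for such a gap was 3.5. Passing the filter therefore says little about rows this scarce. How reads were assigned to rows was not tested. Retinal identity was checked on the rows of mir-182, mir-183 and mir-96, enriched in photoreceptors, whose summed level lay between 198 and 1101 CPM in the 15 mice, and on 6 mir-124 and mir-9 rows of neurons, at 4574 to 12344 CPM. Both lowest values were in the uninjected group. In alternative fits 2 libraries were left out as poor in retinal miRNAs, that of uninjected mouse 2 and the right retina of mouse gRho mouse 1.

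Both miR-193 rows were scarce. The mir-193b row held 971 reads over the 23 libraries and the mir-193a row 322. By mean CPM they ranked 226 and 321 among the 903 mature rows. The mature arms of both are 22 bases long, so the rows can be compared per length, although arms and ligation efficiency may differ. In 13 P23H mice the median level was 4.14 CPM for mir-193b (2.69 to 8.17) and 0.846 CPM for mir-193a (0.286 to 1.87). mir-193b was above mir-193a in 21 of 21 P23H libraries.

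mir-193b was lower in both WT mice than in any P23H mouse. WT mouse 1 had 13 reads, or 1.35 CPM (exact Poisson 95% interval 0.718 to 2.30). WT mouse 2 had 1 read, or 0.0623 CPM (interval 0.00158 to 0.347). The uninjected P23H mice stood at 5.87, 8.17 and 7.69 CPM, the saline mouse at 4.55 CPM and the human gRHO mice at 2.69 and 3.63 CPM. Mouse gRho mice 1 to 7 stood at 2.93, 6.77, 4.14, 2.86, 4.44, 3.08 and 3.06 CPM. The groups of WT and P23H mice did not overlap for this row; of the 382 rows tested, 5.76% had both WT mice below all 13 P23H mice, and 1.31% had both above. Among single libraries, which include both eyes of some mice, the lowest P23H library was the right retina of human gRHO mouse 1, at 2.32 CPM. The share of rows separated in this way was counted over mice and not over libraries.

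The fitted log2 fold change of mir-193b against WT was 3.12 (SE 0.69) in uninjected mice, 2.44 (SE 0.64) with mouse gRho, 2.12 (SE 0.71) with human gRHO and 2.76 (SE 0.79) with saline. These contrasts share the WT mice. Over all 382 rows, edgeR's quasi-likelihood test called 1.57% of rows in uninjected mice against WT at an adjusted p of 0.05 (0.785% higher) and 3.14% with mouse gRho (0.785% higher). It called 0% with human gRHO and 0% with saline, where 9.95% and 6.81% of rows had an unadjusted p under 0.05, beside 16.5% in uninjected mice and 18.1% with mouse gRho. The size rested on the WT mouse used. Leaving out WT mouse 2 gave 2.25, 1.53, 1.12 and 1.78 in the same order, and without WT mouse 1, where the comparison rests on 1 read, they were 6.20, 5.46, 5.11 and 5.75. By reads alone, uninjected mice had 323 reads in all. Their level was 5.05 times that of WT mouse 1 (exact interval 2.91 to 9.58, counting error only). It was 109 times that of WT mouse 2 (interval 19.5 to 4324). These intervals pool reads over mice, leave out the spread between mice, and are no test of the difference.

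mir-193a was high in 1 WT library and not in the other. WT mouse 2 had 136 reads, or 8.47 CPM (interval 7.11 to 10.02), which was the highest of all 23 libraries and 42.2% of all reads of the row. WT mouse 1 had 6 reads, or 0.622 CPM (interval 0.228 to 1.35). The uninjected mice stood at 0.759, 0.286 and 1.87 CPM, the saline mouse at 0.418 CPM and the human gRHO mice at 1.07 and 1.11 CPM. Mouse gRho mice 1 to 7 stood at 1.01, 0.846, 1.09, 0.299, 0.619, 0.670 and 0.941 CPM. WT mouse 1 thus lay inside the range of the P23H mice, and WT and P23H overlapped.

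The fitted log2 fold changes of mir-193a against WT were -2.81 (SE 0.82) in uninjected mice, -2.96 (SE 0.65) with mouse gRho, -2.49 (SE 0.94) with human gRHO and -3.75 (SE 1.34) with saline. Unlike the CPM values, all fits were scaled by TMM factors, which were 0.964 in WT mouse 1 and 0.734 in WT mouse 2. Without these factors the values were -2.18, -2.54, -2.07 and -3.44 in the same order. Those of mir-193b were then 3.47, 2.58, 2.27 and 2.80. Over all rows, 0.785% were called lower in uninjected mice and 2.36% with mouse gRho. Without WT mouse 2 the values for mir-193a were 0.50 (SE 0.93), 0.33 (SE 0.88), 0.72 (SE 0.98) and -0.53 (SE 1.13), so the direction turned in 3 of the 4. By reads, the P23H mice together had 1.37 times the level of WT mouse 1 (interval 0.617 to 3.78). They had 0.101 times that of WT mouse 2 (interval 0.0800 to 0.127). Both intervals cover counting error only, leave out the spread between mice, and are no test. The lower level of mir-193a in P23H retina is thus a difference from 1 library.

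**Figure D1:**
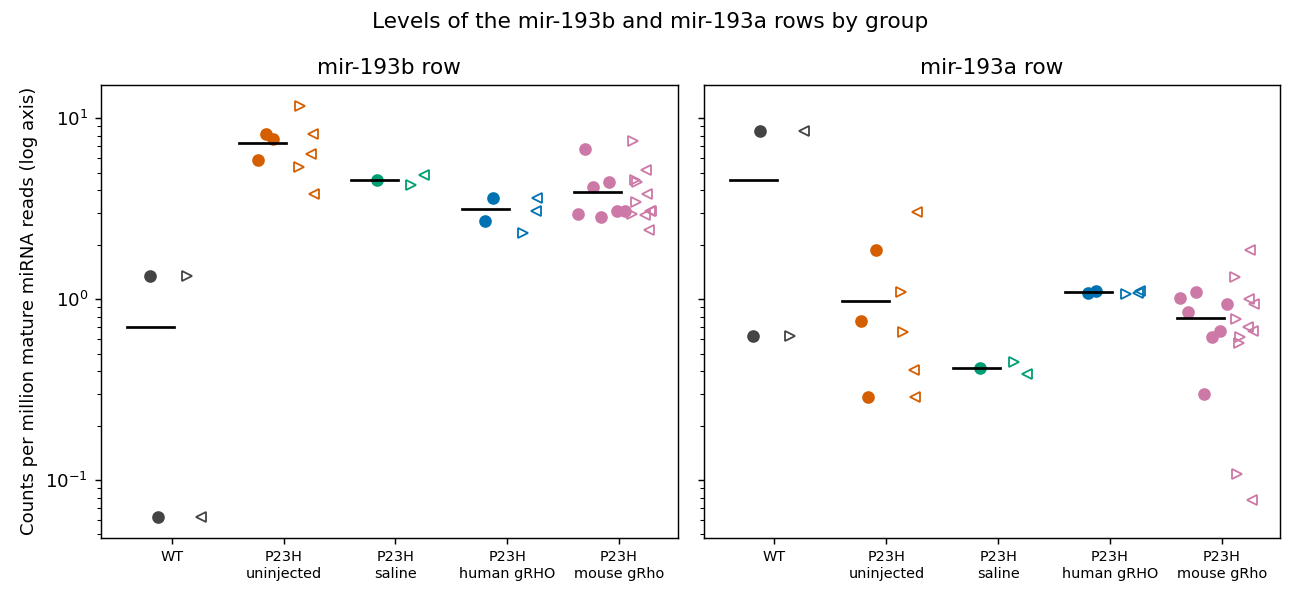
CPM on a log axis for the mir-193b row (left panel) and the mir-193a row (right panel) in 5 groups. Filled circles are mice, black lines are means over mice, and open triangles are single libraries of right (pointing right) and left (pointing left) retinas. For mir-193b both WT mice, at 1.35 and 0.0623 CPM, lie under all P23H mice; for mir-193a WT mouse 2, at 8.47 CPM, lies over all others and WT mouse 1, at 0.622 CPM, among them.

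WT mouse 2 stood apart in many rows. It had the deepest library, with 16048954 mature reads, but 509 mature rows with a read, where the other 22 libraries had 575 to 676. It was the highest of 15 mice in 11.3% of the 382 tested rows and the lowest in 35.9%. WT mouse 1 was the highest in 9.16% and the lowest in 4.71%. mir-193a and mir-193b are among the rows in which WT mouse 2 was the highest and the lowest. The part of this library's overall profile in their levels was not tested.

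Marker rows of other cell types are set beside these levels. The rows of mir-204 and mir-211, of pigment epithelium and Mueller glia, had a summed level of 99.6 CPM in WT mouse 1, 53.7 CPM in WT mouse 2 and between 105 and 205 CPM in the P23H mice; both rows were used and 0 were at 0 in any mouse. Like mir-193b, this sum was lower in both WT mice than in any P23H mouse, as were 5.76% of the 382 tested rows. The mir-204 and mir-211 sum was 134 to 205 CPM in uninjected mice and 147 CPM with saline. It was 120 to 157 CPM with human gRHO and 105 to 183 CPM with mouse gRho. In 7 rows of surface epithelium, lens and cornea, the sum was 83.4 and 68.5 CPM in WT and 80.4 to 202 CPM in P23H, which overlapped. For photoreceptors, with 3 of 3 rows used, it was 1101 and 306 CPM in WT and 198 to 821 CPM in P23H. The sums for photoreceptors, neurons, vessels, red blood cells, muscle and leukocytes all overlapped between WT and P23H. In bulk retina, fewer cells of a type and less RNA per cell cannot be told apart. The part of these cell types in the mir-193b difference was not tested.

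Because the 3p arms share a seed, the reads of both rows were also added. The sum stood at 1.97 CPM in WT mouse 1 and 8.54 CPM in WT mouse 2, against 6.63, 8.45 and 9.57 CPM in uninjected mice, 4.97 CPM with saline, 3.76 and 4.74 CPM with human gRHO and 3.16 to 7.62 CPM with mouse gRho. For the sum, WT mouse 1 thus lay below the P23H range and WT mouse 2 inside it. mir-193b made up 68.4% of the sum in WT mouse 1 and 0.730% in WT mouse 2, and between 71.4% and 96.6% in the P23H mice. In WT mouse 2 nearly all reads of the family were mir-193a, while in WT mouse 1 mir-193b was the larger part, as in each of the 13 P23H mice.

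**Figure D2:**
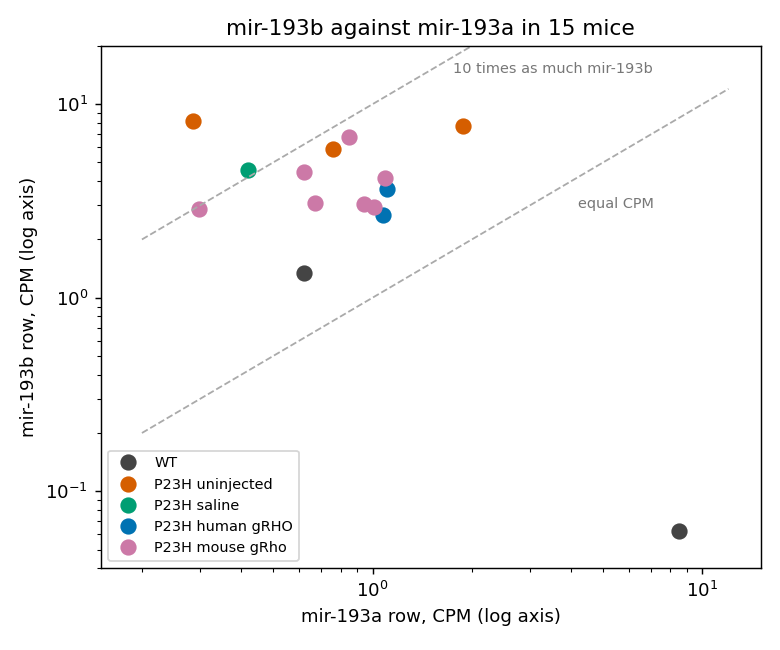
The mir-193b row (vertical) against the mir-193a row (horizontal), in CPM on log axes, for 15 mice coloured by group; dashed lines mark equal CPM and 10 times as much mir-193b. WT mouse 2 is the only mouse under the line of equal CPM, with 0.0623 CPM of mir-193b and 8.47 CPM of mir-193a.

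Across all 15 mice the Pearson correlation between log2(CPM + 0.5) of the paralogs was -0.66. Without WT mouse 2 it was 0.08, and over the 13 P23H mice 0.01. These are descriptions over mice that share groups and libraries. Over those mice the SD of log2(CPM + 0.5) was 0.51 for mir-193b and 0.45 for mir-193a, beside a median of 0.42 over the 382 rows. Those rows were not matched for level. The 0.5 is large beside the median of 0.846 CPM of mir-193a and narrows its SD.

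Treatment with rhodopsin nanoparticles was then compared with no injection. The rows were not chosen by this contrast, but the same uninjected mice entered the comparison with WT by which they were chosen. mir-193b measured 3.90 ± 1.41 CPM (SD, n = 7) with mouse gRho and 7.24 ± 1.21 CPM (SD, n = 3) in uninjected mice. The groups overlapped, since mouse gRho mouse 2, at 6.77 CPM, lay above uninjected mouse 1, at 5.87 CPM. The log2 fold change was -0.68 (SE 0.42, 95% interval -1.56 to 0.20), and it did not pass edgeR's quasi-likelihood test over all rows (adjusted p = 0.913, unadjusted p = 0.123). Of the 382 rows, 0% passed by either edgeR or DESeq2. By edgeR's unadjusted p, 4.71% lay under 0.05. The median log2 fold change of all rows was 0.08.

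That value depended on how it was scaled and tested. Without TMM factors, which were 1.01, 1.18 and 1.26 in the uninjected mice and 0.897 to 1.10 with mouse gRho, it was -0.88. In a fit of these 2 groups alone the unadjusted p was 0.0234 (adjusted p = 0.604, edgeR). A two-sided exact permutation test over the mice of log2(CPM + 0.5) of mir-193b alone, added after the data were seen and not adjusted over the rows, gave a difference of -0.86 (p = 0.0167, where the smallest p possible was 0.00833), and after TMM scaling -0.67 (p = 0.05). Without the 6 libraries over 3% rRNA, which leave 1 uninjected mouse, the log2 fold change was -0.42 (SE 0.74). Without the 2 libraries poor in retinal miRNAs, 1 of them the only library of uninjected mouse 2, it was -0.61 (SE 0.48). The rRNA share was 0.358%, 5.14% and 3.41% in uninjected mice 1 to 3 and between 0.365% and 4.85% in the mouse gRho mice. With left libraries only the value was -0.69 (SE 0.31), and with right libraries only -0.63 (SE 0.46).

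mir-193a measured 0.783 ± 0.275 CPM (SD, n = 7) with mouse gRho and 0.973 ± 0.816 CPM (SD, n = 3) in uninjected mice, whose range enclosed that of the treated mice. The log2 fold change was -0.15 (SE 0.65, 95% interval -1.51 to 1.22, adjusted p = 0.982, edgeR). It changed sign without uninjected mouse 3, the highest P23H mouse for this row, to 0.54 (SE 0.80). The log2 ratio of mir-193b to mir-193a reads, which needs no scaling by depth, was 2.29 ± 0.66 (SD, n = 7) with mouse gRho and 3.15 ± 1.27 (SD, n = 3) without injection, a difference of -0.86 (two-sided exact permutation test, p = 0.183). The difference rested on uninjected mouse 2, which has 2 reads of mir-193a. Without it the difference was -0.18 (exact permutation p = 0.667), and without uninjected mouse 3 it was -1.43 (exact permutation p = 0.0833).

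With human gRHO, mir-193b measured 3.16 ± 0.67 CPM (SD, n = 2) and both mice lay below all 3 uninjected mice, as they did in 17.5% of the 382 rows. The log2 fold change was -1.002 (SE 0.59, 95% interval -2.25 to 0.24) and did not pass (adjusted p = 0.93, unadjusted p = 0.108, edgeR). Of all rows 0% passed and 2.62% had an unadjusted p under 0.05. In a fit of these 2 groups alone the unadjusted p was 0.0108 (adjusted p = 0.755, edgeR), and with DESeq2 it was 0.0445 (adjusted p = 0.929). Without the libraries over 3% rRNA the log2 fold change was -0.85 (SE 0.85). mir-193a stood at 1.07 and 1.11 CPM in the human gRHO mice, from 24 and 11 reads, inside the range of the uninjected mice. Its log2 fold change was 0.32 (SE 0.85, interval -1.47 to 2.12, adjusted p = 0.993, edgeR), and -0.066 without uninjected mouse 2.

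The saline mouse stood between the uninjected and most of the nanoparticle mice for mir-193b, at 4.55 CPM. Its log2 fold change against uninjected mice was -0.36 (SE 0.73, 95% interval -1.90 to 1.18, adjusted p = 0.925, edgeR; 0% of rows passed and 3.40% had an unadjusted p under 0.05), a fit in which the lone mouse is assumed to vary like the other groups. For mir-193a, with 9 reads in the saline mouse, it was -0.94 (SE 1.16, interval -3.38 to 1.51, adjusted p = 0.91). Of the 10 injected mice of any kind, 9 had less mir-193b than the lowest uninjected mouse, the exception being mouse gRho mouse 2; 5.76% of the 382 rows had at least 9 of 10 in that position. This count was made after the values were seen.

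The human and mouse constructs were compared with each other. mir-193b differed by -0.32 (log2, human minus mouse, SE 0.52, 95% interval -1.41 to 0.77) and mir-193a by 0.47 (SE 0.74, interval -1.10 to 2.03), with an adjusted p of 0.997 for each in edgeR and 0% of rows past the threshold (2.88% at an unadjusted p under 0.05). The ranges of the groups overlapped for mir-193b. Against saline, mouse gRho differed by -0.32 (SE 0.65) for mir-193b and 0.79 (SE 1.09) for mir-193a, and human gRHO by -0.64 (SE 0.75) and 1.26 (SE 1.23), with adjusted p-values of 0.995 and 0.996 and 0% of rows called in either comparison (0.785% and 1.31% at an unadjusted p under 0.05). For mir-193b, each of these 3 intervals includes the difference of -0.68 measured between mouse gRho and uninjected mice.

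**Figure D3:**
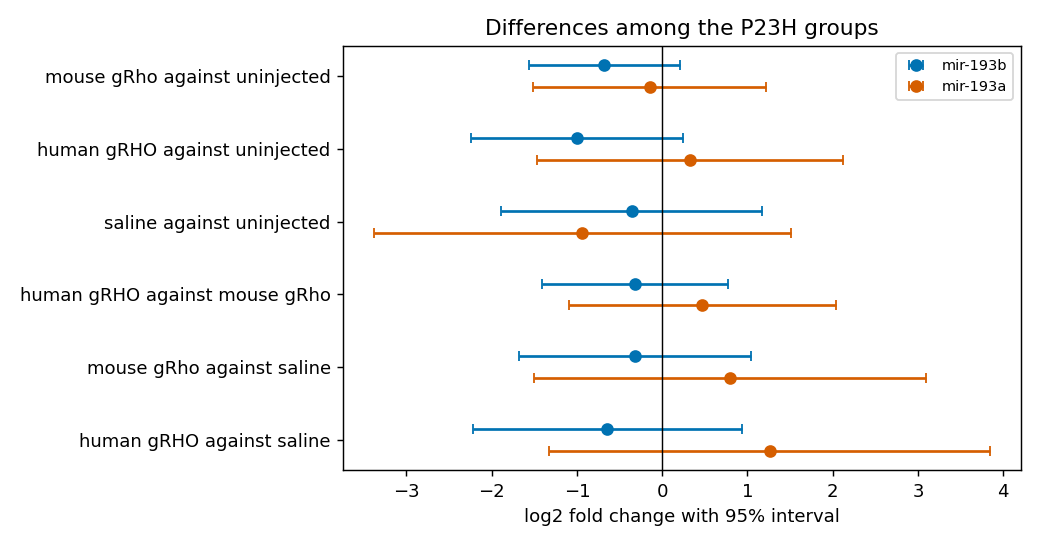
Log2 fold changes of the mir-193b and mir-193a rows in 6 comparisons among P23H groups, from one edgeR fit over 15 mice; bars are 95% intervals. All intervals include 0, among them those of mir-193b for mouse gRho (-1.56 to 0.20) and human gRHO (-2.25 to 0.24) against uninjected.

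Both retinas were available in 8 P23H mice, which gives a measure of how far the rows vary within an animal. For mir-193b, right and left stood at 5.40 and 6.36 CPM in uninjected mouse 1, at 4.28 and 4.84 CPM in the saline mouse and at 2.32 and 3.06 CPM in human gRHO mouse 1. In mouse gRho mice 1 to 4 the right retinas had 2.95, 7.44, 4.54 and 3.42 CPM and the left retinas 2.92, 5.19, 3.83 and 2.40 CPM. Uninjected mouse 3 was the exception, with 11.7 CPM on the right and 3.81 CPM on the left, a difference of 1.51 on the log2 scale. Across mice the right was higher in 5 of 8, and the fitted difference was 0.18 (SE 0.22, adjusted p = 0.952, edgeR with a term for the mouse; 0% of 330 rows passed and 2.73% had an unadjusted p under 0.05). It fell to 0.0144 without uninjected mouse 3.

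For mir-193a the eyes differed more. The right retina of mouse gRho mouse 3 had 1 read, or 0.108 CPM (interval 0.00274 to 0.602), and its left had 22 reads, or 1.87 CPM (interval 1.17 to 2.83). Uninjected mouse 3 had 0.659 CPM on the right and 3.04 CPM on the left, so in this mouse the left retina had more mir-193a and less mir-193b than the right. The left retina of mouse gRho mouse 4 had 1 read (0.0773 CPM) and the right 6 (0.571 CPM). The median absolute difference between the eyes was 0.71 (log2) for mir-193a and 0.28 for mir-193b, beside a median of 0.36 over 330 rows. Those rows were not matched for level, and mir-193a had fewer than 10 reads in 14 of 23 libraries. The part of counting error in the difference of mir-193a was not tested. The fitted difference, right minus left, was -0.24 (SE 0.64, adjusted p = 0.952, edgeR) and the right was higher in 4 of 8 mice. It turned to 0.16 without mouse gRho mouse 3 and to 0.11 without uninjected mouse 3. Two-sided exact sign-flip tests gave p = 0.617 for mir-193a and p = 0.32 for mir-193b.

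**Figure D4:**
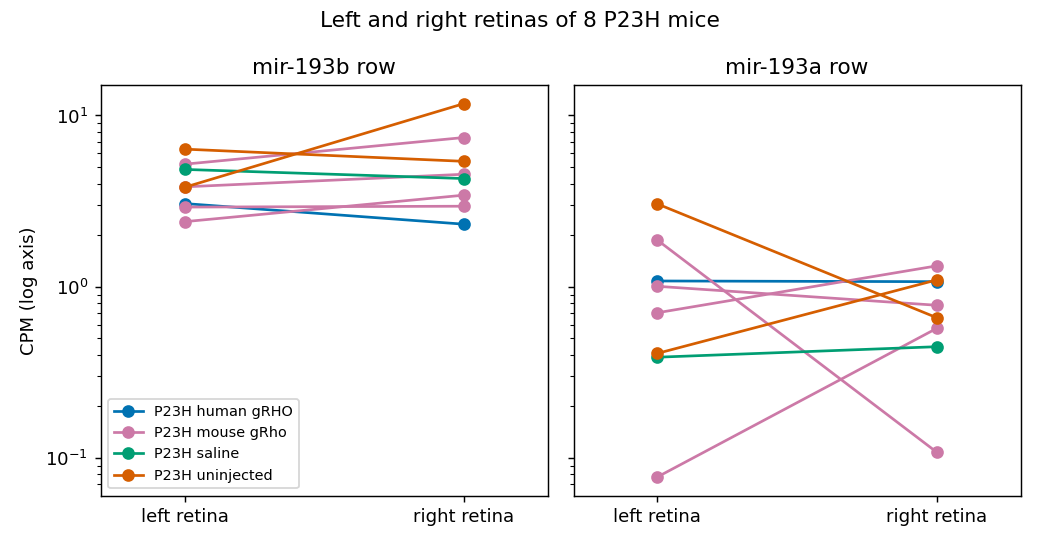
CPM on a log axis of the mir-193b row (left panel) and the mir-193a row (right panel) in the left and right retinas of 8 P23H mice, with a line for each mouse and colours for groups. For mir-193b the line of uninjected mouse 3 is the steepest, from 3.81 to 11.7 CPM, and for mir-193a the lines slope in both directions.

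The rows of the neighbouring miR-365 genes were set beside those of miR-193. miR-365-3p has the same sequence from both genes, so reads of that arm cannot be assigned to one of them. The mir-365-2 row, whose gene lies next to Mir193a, had 1.45 and 0.561 CPM in WT mice 1 and 2, 2.83, 5.30 and 2.59 CPM in uninjected mice 1 to 3, 2.23 CPM with saline, 1.61 and 2.62 CPM with human gRHO, and between 0.134 and 3.61 CPM with mouse gRho. Uninjected P23H exceeded WT by 1.45 (log2, SE 0.76) without passing (adjusted p = 0.37, edgeR; 1.57% of rows passed in either direction). Its lower level in WT was in the direction of mir-193b and not of mir-193a, and WT overlapped with mouse gRho mouse 6. The direction of mir-193a rested on WT mouse 2. Without that mouse, uninjected minus WT was 0.50 for mir-193a and 1.13 for mir-365-2. Over the 13 P23H mice its correlation was 0.45 with mir-193b and -0.18 with mir-193a. The mir-365-1 row jumped between levels and was not compared. It held 980 reads in uninjected mouse 2 and 648 reads in mouse gRho mouse 5, and at most 15 in any other library. Among the other annotation classes, the Mir193a precursor had 1 read, in the left retina of uninjected mouse 3, and the mir-365-2 precursor 7 reads in 2 libraries. No row of another class was found for mir-193b.

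The tested rows most like each paralog were found by the Pearson correlation of log2(CPM + 0.5) over the 15 mice, as a description. For mir-193a they were mir-381 (r = 0.86), mir-677 (0.80), mir-3962 (0.78), mir-488 (0.77) and mir-351 (0.76). WT mouse 2 had 39.6 CPM of mir-381, beside 2.18 CPM in WT mouse 1 and a P23H median of 1.86 CPM, and 27.3 CPM of mir-351, beside 1.04 and 0.810 CPM. Without WT mouse 2 none of the 5 remained among the closest, which were then mir-129-2 (0.81), mir-874 (0.77), mir-212 (0.76), mir-29c (0.73) and mir-362 (0.72). For mir-193b they were mir-23b (r = 0.91), mir-361 (0.91), mir-99b (0.90), mir-324 (0.89) and mir-1843a (0.88). Of these, mir-23b (0.73), mir-361 (0.73) and mir-324 (0.76) were still among the 5 closest without WT mouse 2. None of those stayed among the 5 closest over the P23H mice alone. The closest were then mir-296 (0.81), mir-99b (0.76), mir-34b (0.71), mir-7664 (0.70) and mir-3058 (0.70). mir-23b, of a cluster with mir-27b and mir-24, had 8.29 and 2.93 CPM in WT mice 1 and 2 and a P23H median of 15.4 CPM.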

How the data were processed

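The authors deposited raw read counts for each miRNA locus by annotation class, and, for each library, the reads in each class of alignment. DESeq2 is named in the submitters' processing notes; aligner, counting program and build: not given in the sources used here. Per the labels' protocols, RNA was taken with Trizol from frozen retinas and libraries were made with the NEXT Flex small RNA v3 kit. No matrix column was left unused (0).

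Libraries of 1 mouse were summed. A mature row that reached 30 counts was set aside as two-level when its sorted log2(CPM + 0.5) held a gap of 3.5 or more, or of 2 or more with 2 or more libraries both above and below. The 382 rows with 10 or more counts in 3 or more mice were fitted with edgeR 4.0.16 (quasi-likelihood, robust, TMM, mature reads as library size; R 4.3.3), all 5 groups together, with Benjamini-Hochberg adjustment and a threshold of 0.05. Depth per mouse ran from 6980992 to 25046363 reads. The code was tested on simulated data. Intervals on reads cover counting error only, since no source used here states that molecular identifiers were counted. P-values set a difference against the spread between these mice or, for the eyes, against that of differences within mice. This spread may be partly technical. Alternatives were DESeq2 1.42.0, other scales and filters, single libraries as samples, a replicate block by mouse for the eyes, and leaving out libraries or mice. Named rows were the paralogs, their miR-365 neighbours and the 5 closest rows by correlation. Members, lists and rules were chosen with earlier results of these data known. miRNA sequences and names were matched to RefSeq for 4 of 4 loci.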

Additional observations from a re-analysis of the deposited data

Results flagged for a closer look

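In the 7 mouse gRho mice, 4 values were examined for a mouse far from the others. For mir-193b, mouse gRho mouse 2 stood at 6.77 CPM, and its gap to the next mouse was 0.596 of the group's range (critical value 0.568). Both of its retinas were high, at 7.44 and 5.19 CPM. For mir-365-2, mouse gRho mouse 6, with 1 read and 1 library, stood at 0.134 CPM, with a gap of 0.638 of the range. Both gaps were measured on CPM and not on the log2 scale of the tests, on which the gap of a high value is a smaller share. Chance flags about 5% of such groups if their values follow a normal distribution.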

How the results depend on the processing

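Among P23H groups, mir-193b kept its sign and its side of the threshold in every alternative run, except that the single-row permutation test without TMM scaling (-0.86, unadjusted) passed 0.05. mir-193a changed sign in mouse gRho minus uninjected without libraries over 3% rRNA (0.37) and in the TMM-scaled permutation (0.0307), and in human gRHO minus uninjected without the 2 libraries poor in retinal miRNAs, uninjected mouse 2 and the right retina of mouse gRho mouse 1 (-0.0843). mir-365-2 changed sign in mouse gRho minus uninjected without those poor libraries (0.0846) or the rRNA-rich ones (0.14), and in human gRHO minus saline with rRNA as a covariate (0.056). The cause was not tested.

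Leaving out 1 mouse at a time, mir-193a ranged from -0.52 to 0.54 in mouse gRho minus uninjected, from -0.066 to 0.99 in human gRHO minus uninjected and from -0.52 to 0.16 in right minus left, where mir-193b ranged from 0.0144 to 0.28. mir-365-2 ranged from -0.52 to 0.0224 in mouse gRho minus uninjected, -0.66 to 0.14 in human gRHO minus mouse gRho, -0.0311 to 0.28 in mouse gRho minus saline and -0.58 to 0.18 in human gRHO minus saline. Against WT, mir-193a ranged from -3.61 to 0.50 (uninjected), -3.80 to 0.33 (mouse gRho), -3.37 to 0.72 (human gRHO) and -4.63 to -0.53 (saline). mir-193b ranged from 2.25 to 6.20, 1.53 to 5.46, 1.12 to 5.11 and 1.78 to 5.75 in the same order. Contrasts with saline could not be fitted without its only mouse.

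Over all rows, uninjected minus WT had 6 calls. It had 0 without WT mouse 2, without uninjected mouse 1, 2 or 3, without the poor or the rRNA-rich libraries, with the rRNA covariate and with only these groups fitted, 1 with two-level rows, 11 without the filter or with DESeq2, and 60 without WT mouse 1. Mouse gRho minus WT had 12, and 0 without WT mouse 2, 64 without WT mouse 1, 3 with the covariate, 7 without the rRNA-rich libraries or TMM, and up to 19 otherwise. Human gRHO and saline minus WT had 0 each, 46 and 32 without WT mouse 1, and at most 5 otherwise. Among P23H groups DESeq2 called 0 in all 6 comparisons, and no alternative called more than 2.

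Replicate numbers were given in accession order and pair no samples across groups. For the eyes, the fit without the replicate block by mouse gave -0.57 for mir-193a and 0.27 for mir-193b, with the same calls. Depth limits mir-193a most: 14 of 23 libraries held fewer than 10 of its reads, and 1 read changes the low ones by much of their value.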
